A study of Mus musculus with 8 samples.

Results

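The small leucine-rich proteoglycans are a family of secreted matrix proteins, and 10 of their genes were followed here in mouse long bone after chemotherapy: Bgn, Dcn, Lum, Fmod, Omd, Ogn, Aspn, Prelp, Kera and Podn. They were found by symbol in the deposited table of 55421 genes, each symbol matched 1 row, and all 10 passed the filter on low counts that left 17035 genes for testing. The tissue was both tibiae and both femurs of each mouse, cut free of their ends and spun to remove marrow. The groups were 4 wild-type C57BL/6 male mice given 1 intraperitoneal dose of doxorubicin (10 mg/kg) and 4 wild-type C57BL/6 males given saline vehicle, all 15 weeks old at injection and killed on day 30. Doxorubicin is an anthracycline that poisons topoisomerase II and breaks DNA, and the series uses it to model senescence brought on by chemotherapy. Each library came from 1 mouse, so a replicate is an animal, and only males and a single dose and time were sampled.

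These proteins share a horseshoe-shaped core of leucine-rich repeats that binds collagen, and they set how wide collagen fibrils grow and how they are spaced. Most carry sulfated sugar chains, chondroitin or dermatan sulfate on biglycan and decorin and keratan sulfate on lumican, fibromodulin, osteomodulin and keratocan. Several also hold growth factors of the TGF-beta and BMP families in the matrix, and in mice the loss of biglycan lowers bone mass. In long bone they are made by osteoblasts, osteocytes and the fibroblasts of periosteum and tendon.

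Libraries held between 23699525 and 35747083 counts. The bone genes Bglap, Dmp1 and Sost had counts in every library. Marrow and muscle RNA remained: summed over 10 neutrophil genes, the level was 10535 to 21797 CPM (counts scaled to library size with TMM factors) in doxorubicin and 13108 to 23333 CPM in vehicle bones, and over 10 skeletal muscle genes it was 13895 to 35825 CPM in doxorubicin and 4345 to 25014 CPM in vehicle bones, with vehicle 3 the lowest. In such bulk samples fewer cells of a type and less RNA per cell cannot be told apart. In edgeR's quasi-likelihood test, 0 of 17035 genes passed an adjusted p of 0.05 (0%), and 913 (5.36%) had an unadjusted p under 0.05. DESeq2 called 29 genes (0.17%) and limma-voom 0.

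Most of the genes sit beside a relative in the genome (GENCODE M21 positions, GRCm38). On chromosome 10, Dcn (97479609 to 97518143), Lum (97565128 to 97572703) and Kera (97606879 to 97613692) follow each other on the plus strand with gaps of 47.0 and 34.2 kb, and Epyc, the gene of epiphycan, comes 30.4 kb later. On chromosome 13, Aspn (49544443 to 49567565), Omd (49582462 to 49592822) and Ogn (49608046 to 49624501) are also on the plus strand, 14.9 and 15.2 kb apart, with Ecm2 11.7 kb before Aspn. All 4 lie across from Cenpp, a centromere protein gene on the other strand, whose exons overlap those of Aspn. Chromosome 1 holds Prelp (133910304 to 133921414, minus strand) and Fmod (134037254 to 134048277, plus strand), 116 kb apart. Bgn is on chromosome X (73483602 to 73495933, plus strand) and Podn on chromosome 4 (108014791 to 108096445, minus strand). The sources used here do not say if counting was by strand, and reads of Aspn and Cenpp may not be fully separated. Cenpp had 110 to 399 counts per library, against 1799 to 4954 for Aspn. Gm15851, an antisense gene that overlaps exons of Prelp, had at most 1 count.

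The genes also differ in base composition. The longest transcripts of Aspn (34.3% G and C), Omd (36.1%), Ogn (36.3%), Dcn (37.4%), Kera (40.7%) and Lum (41.9%) lie below the median of 49.1% over 17015 tested genes with a sequence, and those of Bgn (51.2%), Fmod (53.7%), Prelp (53.8%) and Podn (56.3%) above it. Only 0.294% of tested genes had a lower GC content than Aspn. Promoter windows of 300 bases, 250 before and 50 after the RefSeq start (GRCm38.p6), matched for 8 of the 10 genes; Dcn and Lum did not match. Those of 5 genes are shown, taken from pairs whose mRNAs varied together across the 8 libraries (r above 0.8). Omd varied most closely with Lum (r = 0.96) and Dcn (r = 0.90), which had no window. The windows of Bgn and Prelp had 63.7% and 55.3% G and C. Those of Aspn, Omd and Ogn had 31.0%, 37.7% and 42.3%, against a median of 52.7% over 32851 windows. Fmod, whose transcript is above the median, had a window of 51.0%, below it. They run 5′ to 3′ on the gene's strand, from chrX:73483351-73483650 (plus) for Bgn, chr1:133921352-133921651 (minus) for Prelp, chr13:49544193-49544492 (plus) for Aspn, chr13:49582212-49582511 (plus) for Omd and chr13:49607765-49608064 (plus) for Ogn. Capitals mark the TATA box letters TATAAA, the CCAAT box letters CCAAT and the RUNX core TGTGGT on either strand.
Bgn: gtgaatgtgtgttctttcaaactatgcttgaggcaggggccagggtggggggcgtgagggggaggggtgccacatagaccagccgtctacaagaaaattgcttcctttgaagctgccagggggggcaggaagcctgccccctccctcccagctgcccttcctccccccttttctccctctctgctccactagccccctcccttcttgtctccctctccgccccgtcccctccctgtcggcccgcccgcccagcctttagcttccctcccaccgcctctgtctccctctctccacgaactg
Prelp: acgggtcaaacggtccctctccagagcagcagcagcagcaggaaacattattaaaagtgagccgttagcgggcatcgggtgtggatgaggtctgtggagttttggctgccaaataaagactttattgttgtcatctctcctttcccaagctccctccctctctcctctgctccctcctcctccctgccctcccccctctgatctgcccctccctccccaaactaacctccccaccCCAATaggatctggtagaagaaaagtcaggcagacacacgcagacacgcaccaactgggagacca
Aspn: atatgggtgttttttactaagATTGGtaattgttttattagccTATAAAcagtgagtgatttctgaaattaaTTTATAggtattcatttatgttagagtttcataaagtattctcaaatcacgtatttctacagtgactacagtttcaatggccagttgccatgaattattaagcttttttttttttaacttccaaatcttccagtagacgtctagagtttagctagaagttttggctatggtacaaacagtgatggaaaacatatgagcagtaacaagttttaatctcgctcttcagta
Omd: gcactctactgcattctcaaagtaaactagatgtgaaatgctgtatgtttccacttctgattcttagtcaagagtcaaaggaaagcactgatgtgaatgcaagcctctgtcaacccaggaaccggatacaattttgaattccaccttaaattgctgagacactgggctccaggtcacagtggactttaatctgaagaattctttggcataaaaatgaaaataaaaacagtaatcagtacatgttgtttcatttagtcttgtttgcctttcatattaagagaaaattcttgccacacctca
Ogn: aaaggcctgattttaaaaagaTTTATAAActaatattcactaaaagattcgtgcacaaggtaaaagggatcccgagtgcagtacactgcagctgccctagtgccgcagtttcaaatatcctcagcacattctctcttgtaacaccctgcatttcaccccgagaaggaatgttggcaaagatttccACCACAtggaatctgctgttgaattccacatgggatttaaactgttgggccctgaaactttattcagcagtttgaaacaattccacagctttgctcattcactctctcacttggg
TATAAA was found in the windows of Aspn and Ogn, on both strands in each, and 13.6% of all windows hold it. The matches lay far upstream, beginning at -207 and -178 bases from the RefSeq start in Aspn and at -227 and -229 in Ogn. In Ogn the matches on the opposite strands overlap. CCAAT was found in Prelp on the gene's strand and in Aspn on the opposite strand (37.4% of all windows), and TGTGGT in Ogn on the opposite strand (16.8%). The AP-1 letters TGANTCA, searched on both strands, are in none of these 5 windows and in 7.81% of all. The windows of Bgn and Omd hold none of the 4 motifs. A match is a description of the letters and not evidence of binding.

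Per unit of transcript length, Dcn was the most abundant of the genes and Podn the least. Levels between genes are given in TPM, counts divided by length and scaled to a common total over the tested genes, with the combined exons of a gene as its length. Over all 8 libraries Dcn averaged 247 ± 64.4 TPM (SD, n = 8), above 98.8% of tested genes, Lum 212 ± 45.8 TPM and Bgn 144 ± 43.9 TPM. Ogn followed at 100.4 ± 20.6 TPM, Aspn at 82.2 ± 27.9 TPM, Omd at 44.8 ± 10.5 TPM and Fmod at 30.6 ± 6.68 TPM. At the low end were Prelp at 9.91 ± 2.65 TPM, Kera at 2.40 ± 1.28 TPM and Podn at 1.92 ± 0.842 TPM, which was above 26.8% of tested genes. Dcn, Lum and Bgn together made up 64.3% to 75.5% of the summed TPM of the 10 genes in doxorubicin bones and 61.5% to 73.2% in vehicle bones.

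Several neighbours in this order were not separated by their spread. The ranges of the 8 libraries overlapped for every adjacent pair except Fmod over Prelp and Prelp over Kera, which were ordered the same way in 8 of 8 libraries. Aspn was above Omd, and Omd above Fmod, in 8 of 8 libraries although their ranges overlapped. In doxorubicin 3, however, Omd and Fmod were level, both at 37.42 TPM. Dcn was above Lum in 7 of 8 libraries at a mean ratio of 1.17, and Kera above Podn in 5 of 8. The place of Bgn rests on the length used. The annotation gives it 8 transcripts whose combined exons span 6099 bases, whereas its longest transcript has 2666 bases. With the longest transcript of each gene, Bgn averaged 292 TPM and Dcn 272 TPM.

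**Figure D1:**
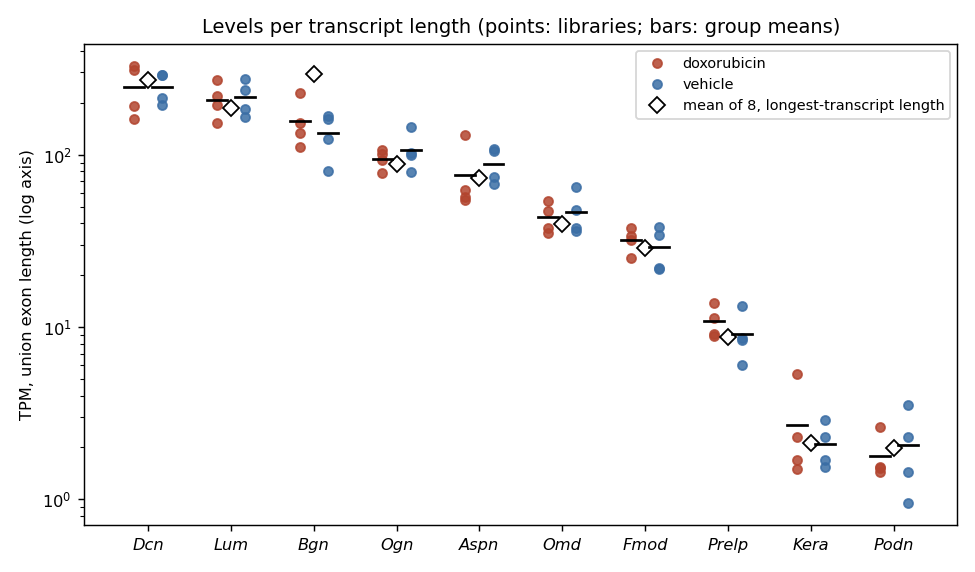
Levels of the 10 genes in TPM on a log axis, ordered by their mean; each point is a library (doxorubicin left, vehicle right), bars are group means and open diamonds are means of 8 libraries with the longest transcript as length. Dcn, Lum and Bgn lie near the top between 80.5 and 328 TPM, Kera and Podn lie at the bottom, and the diamond of Bgn stands at 292 TPM.

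None of the 10 genes passed the test between doxorubicin and vehicle bones. In edgeR 0 of 10 had an adjusted p under 0.05, beside 0% of all tested genes, and 0 of 10 had an unadjusted p under 0.05, beside 5.36% (2.13% higher and 3.23% lower in doxorubicin). DESeq2 and limma-voom also called 0 of 10. The log2 fold changes (doxorubicin over vehicle) ran from -0.13 to 0.35 with a median of 0.09, whereas the median of all tested genes was 0.04. Of the 10 genes 4 were below 0, beside 42.8% of all tested genes, and 7 were within 0.25 of 0, beside 71.7%. Adjusted p-values ran from 0.856 to 0.999. In 0 of 10 genes did the 2 groups separate without overlap, which 3.59% of all tested genes did.

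Among the genes that carry chondroitin or dermatan sulfate, Bgn encodes biglycan, which binds collagen and supports BMP signalling in osteoblasts. It had 649, 756, 392 and 399.7 CPM in doxorubicin bones 1 to 4, against 532, 338, 380.3 and 500.0 CPM in vehicle bones 1 to 4. Doxorubicin 1 and 2 lay above every vehicle library, while doxorubicin 3 and 4 lay inside the vehicle range. The means were 549 ± 183 CPM in doxorubicin and 438 ± 93.0 CPM in vehicle bones (SD, n = 4 each), a log2 fold change of 0.33 with a 95% interval of -0.24 to 0.89 (adjusted p = 0.856, edgeR). Without doxorubicin 2 it was 0.10, and with the tendon or marrow lists as a covariate 0.13 or 0.15. Dcn encodes decorin, which limits fibril width and binds TGF-beta. Its level was 1338, 993, 537 and 549.9 CPM in doxorubicin bones, against 918, 779.7, 861 and 607 CPM in vehicle bones. The vehicle libraries lay in the middle, with doxorubicin 1 and 2 above all of them and doxorubicin 3 and 4 below all of them. Its log2 fold change was 0.11 (95% interval -0.56 to 0.79, adjusted p = 0.942, edgeR), and -0.21 without doxorubicin 1.

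Aspn encodes asporin, an aspartate-rich relative of decorin that lacks sugar chains of this kind and inhibits TGF-beta in cartilage. Its level was 213, 80.1, 62.1 and 78.1 CPM in doxorubicin bones, against 95.2, 174, 126 and 78.0 CPM in vehicle bones. Doxorubicin 1 was the highest of all 8 libraries and doxorubicin 3 the lowest. With means of 108 ± 70.2 CPM in doxorubicin and 118 ± 42.2 CPM in vehicle bones (SD, n = 4 each), the log2 fold change was -0.13 (95% interval -1.02 to 0.77, adjusted p = 0.951, edgeR). With the tendon list as a covariate it was -0.80 (unadjusted p = 0.0707), and with the marrow lists -0.47. It was -0.71 without doxorubicin 1 (unadjusted p = 0.0255, adjusted p = 0.955) and 0.10 without vehicle 2. This was the widest interval of the 10 genes.

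**Figure D2:**
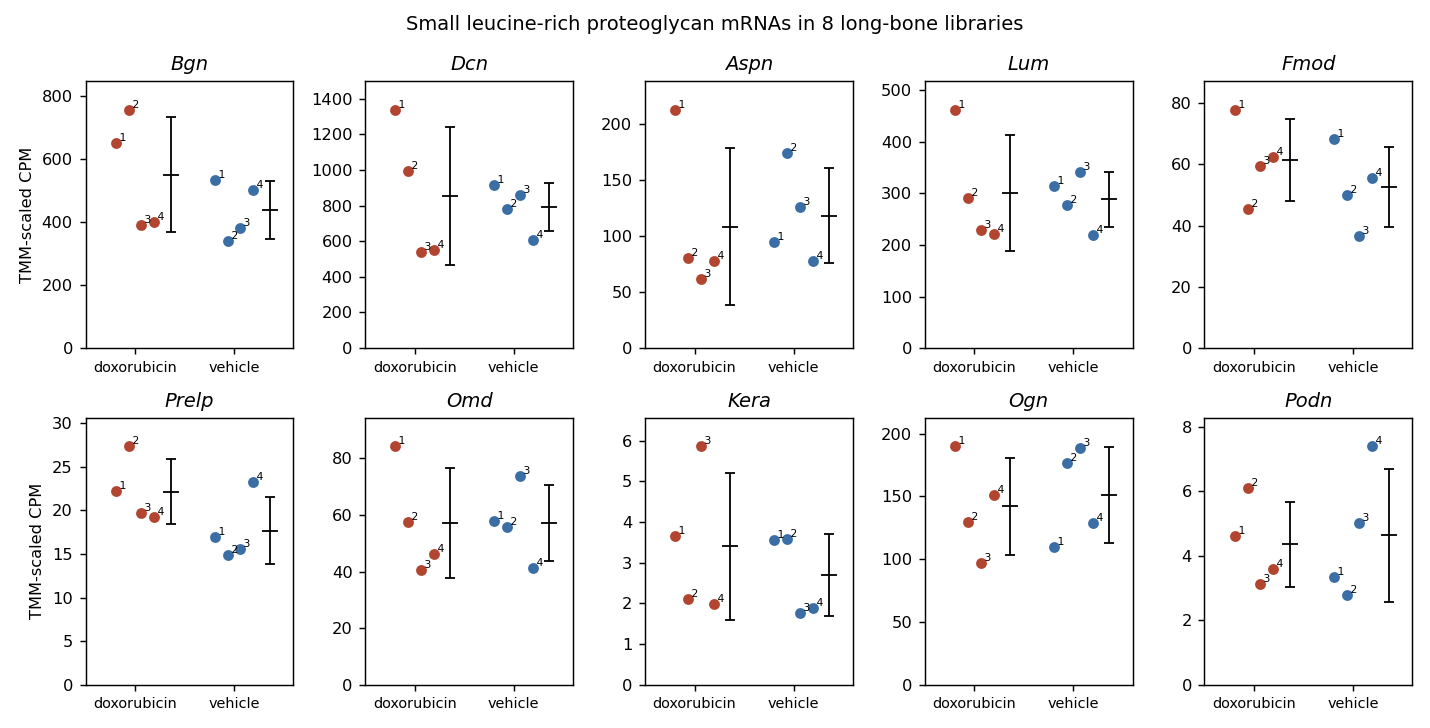
TMM-scaled CPM of each gene in the 4 doxorubicin libraries (left, red) and the 4 vehicle libraries (right, blue), numbered by replicate, with the group mean and SD in black and each vertical axis starting at 0. The groups overlap for every gene; doxorubicin 1 is the highest library for 6 of the 10 genes, Aspn at 213 CPM among them.

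Of the genes whose proteins belong to the keratan sulfate class, Lum encodes lumican, which spaces collagen fibrils and keeps the cornea clear. Lum had 462, 291, 229.7 and 221 CPM in doxorubicin bones, against 314, 278, 342 and 219 CPM in vehicle bones. Apart from doxorubicin 1 every doxorubicin library lay within the vehicle range, and the log2 fold change was 0.06 (95% interval -0.49 to 0.61, adjusted p = 0.959, edgeR). Omd encodes osteomodulin (osteoadherin), an acidic protein of mineralised matrix that binds hydroxyapatite. Omd had 84.3, 57.4, 40.5 and 46.2 CPM in doxorubicin bones, against 58.1, 55.7, 73.9 and 41.1 CPM in vehicle bones. Group means were 57.1 ± 19.4 CPM in doxorubicin and 57.2 ± 13.4 CPM in vehicle bones (SD, n = 4 each). Its 95% interval still ran from -0.54 to 0.54 on the log2 scale.

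Fmod encodes fibromodulin, which binds collagen and lysyl oxidase and is abundant in tendon. It had 77.9, 45.4, 59.5 and 62.5 CPM in doxorubicin bones, against 68.4, 49.8, 36.7 and 55.5 CPM in vehicle bones. Vehicle 3, the library lowest in muscle genes, was also the lowest in Fmod. The log2 fold change of 0.22 (95% interval -0.24 to 0.68, adjusted p = 0.860, edgeR) was 0.04 without vehicle 3. It was 0.07 with the mean of the muscle marker list as a covariate and -0.04 with that of the tendon list. Kera encodes keratocan, known from the cornea. Its level was 3.65, 2.10, 5.86 and 2.00 CPM in doxorubicin bones, against 3.56, 3.59, 1.78 and 1.89 CPM in vehicle bones. Doxorubicin 3 stood highest, and without it the log2 fold change of 0.35 (95% interval -0.52 to 1.21, adjusted p = 0.873, edgeR) became -0.09.

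Prelp had the smallest p of the 10 genes. It encodes a leucine-rich repeat protein with a basic end that binds heparan sulfate. Prelp had 22.3, 27.3, 19.7 and 19.2 CPM in doxorubicin bones, against 16.9, 14.9, 15.6 and 23.3 CPM in vehicle bones. Vehicle 4 lay among the doxorubicin libraries, and the other 3 vehicle libraries lay below all 4 of them. Means were 22.1 ± 3.71 CPM in doxorubicin and 17.7 ± 3.82 CPM in vehicle bones (SD, n = 4 each), a log2 fold change of 0.33 ± 0.17 (SE; 95% interval -0.06 to 0.71; unadjusted p = 0.0878, adjusted p = 0.856, edgeR). Without vehicle 4 the fold change was 0.46 on the log2 scale (unadjusted p = 0.0141, adjusted p = 0.397), and without doxorubicin 2 it was 0.18 (unadjusted p = 0.322, adjusted p = 0.937).

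The remaining genes belong to other classes of the family. Ogn encodes osteoglycin (mimecan), a small proteoglycan isolated from bone matrix. Ogn had 189.8, 130.01, 97.1 and 151 CPM in doxorubicin bones, against 109.6, 177, 189 and 128 CPM in vehicle bones. High and low libraries were mixed across the groups, and the log2 fold change was -0.09 (95% interval -0.60 to 0.43, adjusted p = 0.940, edgeR). Podn encodes podocan, a collagen-binding member found in the vessel wall and kidney. Its level was 4.61, 6.10, 3.13 and 3.60 CPM in doxorubicin bones, against 3.33, 2.80, 5.002 and 7.39 CPM in vehicle bones. All doxorubicin libraries lay inside the vehicle range, with a log2 fold change of -0.09 (95% interval -0.80 to 0.62, adjusted p = 0.955, edgeR) that was 0.20 without vehicle 4.

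**Figure D3:**
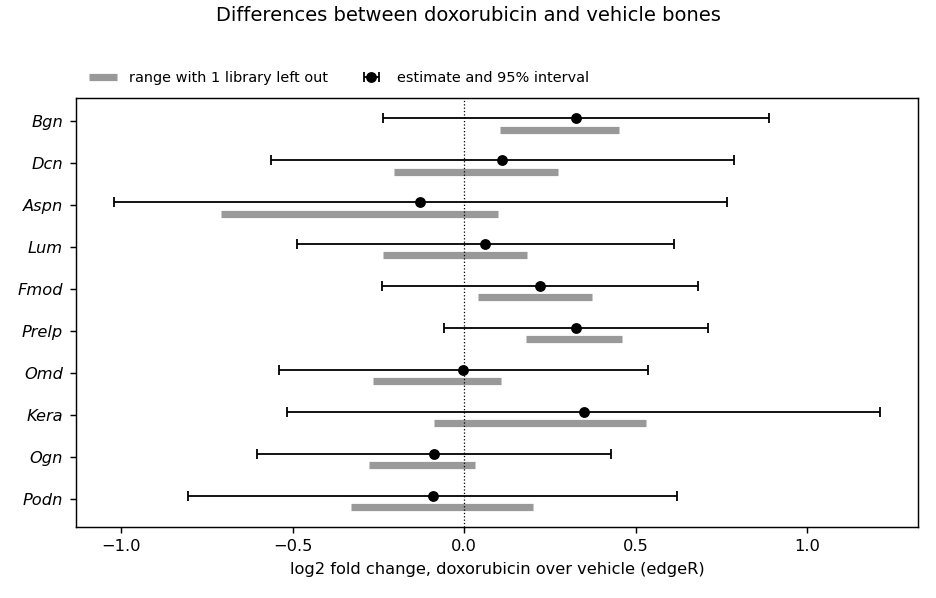
Log2 fold change of each gene, doxorubicin over vehicle, from edgeR (points) with its 95% interval (lines), and the range of estimates with 1 of the 8 libraries left out (grey bars). All 10 intervals include 0; the estimates run from -0.13 for Aspn to 0.35 for Kera.

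Although the groups did not separate, single libraries did. The genes varied more between the 8 mice than most: their median coefficient of variation was 28.7%, against 18.6% over all tested genes, and it reached 47.6% for Aspn and 46.0% for Kera. In TMM-scaled CPM, doxorubicin 1 was the highest library for 6 of the 10 genes (Dcn, Lum, Fmod, Omd, Ogn and Aspn). Doxorubicin 3 was the lowest for 4 (Dcn, Omd, Ogn and Aspn), and both belong to the same treatment group. This order depended on the scaling. In TPM, doxorubicin 1 was still the highest for Dcn and Aspn, but Lum, Omd and Ogn were highest in vehicle 3 and Fmod in vehicle 1. Doxorubicin 3 was still the lowest for Ogn and Aspn, but Dcn and Omd were lowest in doxorubicin 4.

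Across the 8 libraries the genes fell into sets that moved together. Correlations below are Pearson r of log2 CPM over 8 libraries that share marrow, muscle and bone RNA in varying parts and differ in depth; they are descriptions. The median over the 45 pairs was 0.11, and 6 pairs were above 0.8. Lum and Omd were closest (r = 0.96, Spearman rho = 0.93), then Dcn and Lum (r = 0.94, rho = 0.81) and Dcn and Omd (r = 0.90, rho = 0.88). Ogn and Aspn (r = 0.82, rho = 0.81), Omd and Aspn (r = 0.81, rho = 0.86) and Bgn and Prelp (r = 0.80, rho = 0.79) made up the rest. Within a library the TPM of Omd was 0.192 to 0.228 of that of Lum in doxorubicin bones and 0.201 to 0.235 in vehicle bones. By contrast the ratio of Bgn to Dcn was 0.464 to 0.729 in doxorubicin and 0.415 to 0.788 in vehicle bones.

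Genomic neighbours differed in how closely they varied together. Those on chromosome 10 gave 0.94 for Dcn with Lum but 0.11 for Lum with Kera, 34.2 kb further on. On chromosome 13 the values were 0.85 for Ecm2 with Aspn, 0.81 for Aspn with Omd and 0.70 for Omd with Ogn. Prelp and Fmod on chromosome 1 had an r of 0.19.

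Base composition moved with the sets. Over the 15 pairs of genes that both lie below the median GC content, the median r was 0.70, with a range of -0.39 to 0.96. Over the 6 pairs that both lie above it the median was 0.42, with a range of -0.28 to 0.80. For the 24 pairs with 1 gene on each side it was 0.03. The libraries themselves differed by GC content: the median log2 level, relative to each gene's mean over the libraries, of the genes in the lowest of 4 equal GC classes, minus that of the highest class, was -0.16 to -0.03 in doxorubicin bones and -0.30 to 0.37 in vehicle bones, with vehicle 2 and 3 at 0.37 and vehicle 4 at -0.30. Each library was then adjusted for GC content in 20 bins, an adjustment chosen after seeing the data. After it the median r was 0.39 for the 15 pairs, 0.32 for the 6 and 0.24 for the 24. Lum and Omd then had an r of 0.98, Dcn and Lum 0.91 and Bgn and Prelp 0.79. Bgn and Dcn had 0.87, against 0.63 before the adjustment. On chromosome 13 the values fell, to 0.39 for Omd with Ogn and 0.66 for Aspn with Omd. Aspn had 0.70 with Ogn and 0.64 with Ecm2 after the adjustment. With the GC adjustment 0 of 10 genes passed the test between the groups.

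**Figure D4:**
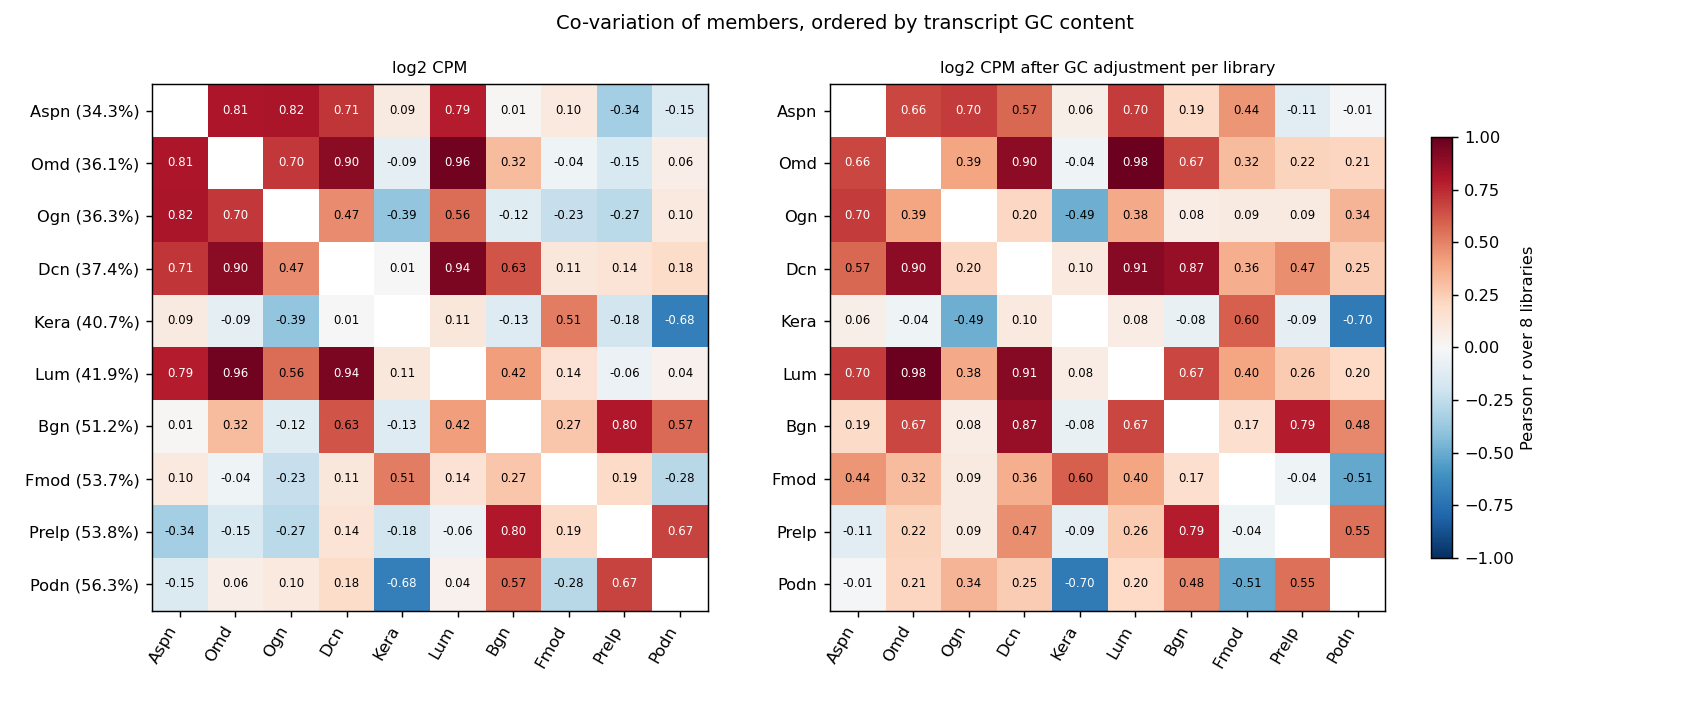
Pearson r of log2 CPM over 8 libraries for each pair of the 10 genes, ordered by the GC content of the longest transcript (in brackets), before (left) and after (right) adjustment of each library for GC content. Dcn, Lum and Omd have an r of 0.90 to 0.96 with each other on the left and 0.90 to 0.98 on the right, while the r of Omd with Ogn is 0.70 on the left and 0.39 on the right.

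Marker lists of several cell types were set beside the genes in the same way. Bgn followed the 9 osteoblast markers closely (r = 0.97, rho = 0.90; 0.92 without the 2 libraries farthest from the median of the markers), higher than 99.9% of tested genes. Dcn followed the 8 osteocyte markers (r = 0.90, rho = 0.95), and Bgn and Lum both had an r of 0.72 with them. With the osteoblast markers, r was 0.63 for Dcn, 0.50 for Lum and 0.37 for Omd. Without the 2 farthest libraries these were 0.02, -0.03 and -0.19. After the GC adjustment, r with the osteoblast markers was 0.95 for Bgn, 0.91 for Dcn, 0.82 for Lum and 0.81 for Omd. With the osteocyte markers the adjusted r was 0.73 for Bgn, 0.89 for Dcn and 0.73 for Lum, close to the values before it. Fmod had its highest values with skeletal muscle (r = 0.82, rho = 0.81) and tendon markers (r = 0.81, rho = 0.83), of which the second was 0.34 without the 2 farthest libraries. Podn and Kera differed in sign against the markers of stromal reticular cells, the marrow cells that make Cxcl12, at 0.73 and -0.81. Neutrophil markers ran against Bgn (r = -0.87) and Dcn (r = -0.79, and -0.52 without the 2 farthest libraries). With the adipocyte markers r was 0.80 for Bgn and 0.78 for Prelp, but 0.37 and 0.24 without the 2 farthest libraries. Prelp had an r of 0.77 with the osteoblast markers, and 0.53 without those libraries.

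Beside these values, 8 of 9 osteoblast markers had a log2 fold change above 0, with a summed level of 1141 to 2451 CPM in doxorubicin and 1316 to 2106 CPM in vehicle bones. The 8 osteocyte markers, 6 of them above 0, summed to 383 to 810.0 CPM in doxorubicin and 481 to 1036 CPM in vehicle bones. The 7 tendon markers, 6 of them above 0, summed to 97.7 to 152 CPM in doxorubicin and 67.8 to 105 CPM in vehicle bones, and the 9 fibroblast markers, 8 of them above 0, to 497 to 1012 CPM in doxorubicin and 525 to 634 CPM in vehicle bones. No marker of these 4 lists was at 0 in any library. Of the 10 neutrophil markers 5 lay above 0, of the 10 erythroid markers 0, of the 10 skeletal muscle markers 10 and of the 6 stromal reticular markers 1. Of all 17035 tested genes 9742 lay above 0. In edgeR the unadjusted p was under 0.05 for 2 osteoblast, 0 osteocyte, 2 tendon and 3 fibroblast markers, beside 5.36% of all tested genes. It was under 0.05 for 0 neutrophil, erythroid, muscle or stromal reticular markers. Of the 7 adipocyte markers 5 lay above 0, and 2, both higher in doxorubicin, had an unadjusted p under 0.05 in edgeR. The part of these cell types in the members' values was not tested. With covariates for marrow, muscle or tendon, only the difference between the groups was tested. There 0 of 10 genes passed, as without covariates.

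**Figure D5:**
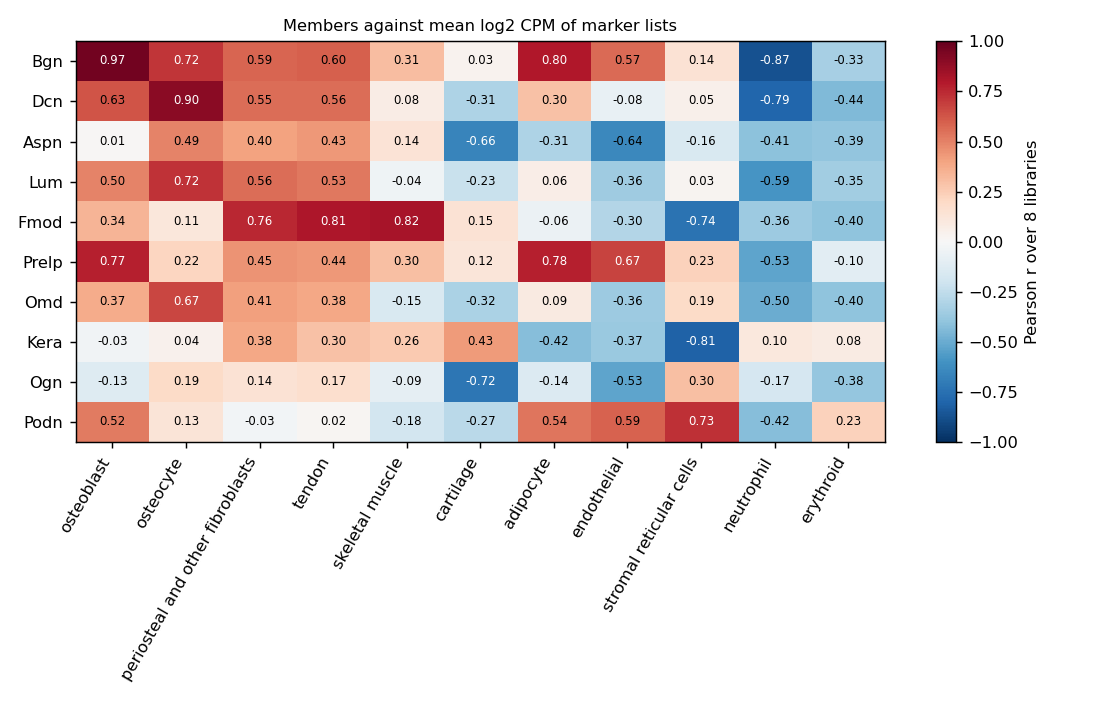
Pearson r over 8 libraries between log2 CPM, without GC adjustment, of each of the 10 genes (rows) and the mean log2 CPM of each marker list (columns). Bgn with osteoblast markers (0.97) and Dcn with osteocyte markers (0.90) are the highest values; Kera and Podn have opposite signs against stromal reticular cells.

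Over all tested genes with a mean of at least 5 CPM, the closest in pattern to Bgn were Nbr1 (r = 0.990) and Itga11, the integrin alpha 11 chain of a collagen receptor (r = 0.987). For Dcn they were Rapgef4 (r = 0.983) and Hecw2 (r = 0.983), for Lum Ptar1 (r = 0.964) and Omd, and for Omd Zbtb41 (r = 0.967) and Lum. The closest to Aspn were Acbd5 (r = 0.9752) and Zfp975 (r = 0.968), and to Ogn Spopl (r = 0.967) and Zfp946 (r = 0.960). Fmod was nearest to Tbc1d1 and Ptpn3 (r = 0.963 and 0.962), Prelp to Kctd17 and Plekhg5 (r = 0.982 and 0.979), Kera to Cct3 and Met (r = 0.979 and 0.928) and Podn to Bptf and Ndnf (r = 0.969 and 0.953). These values are a description of the 8 libraries.

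Outside the 10 genes, 8 further members of the family were in the table and 7 were tested; 0 passed in either direction, 3 had an unadjusted p under 0.05, beside 5.36% of all tested genes, and 1 of 7 lay below 0, beside 42.8%. Nyx, which encodes nyctalopin of the retina, had 1.26, 1.32, 0.692 and 1.09 CPM in doxorubicin bones, against 1.87, 2.61, 1.68 and 1.82 CPM in vehicle bones. Each doxorubicin library lay below each vehicle library, at a log2 fold change of -0.86 ± 0.26 (SE; unadjusted p = 0.00737, adjusted p = 0.825, edgeR; 0.309 in DESeq2). Nyx was the 1 gene of the 7 with groups that did not overlap, beside 3.59% of all tested genes. It had only 21 to 66 counts per library. Tsku, which encodes tsukushi, a secreted inhibitor of BMP signalling, had a log2 fold change of 0.54 ± 0.22 (SE; adjusted p = 0.856, edgeR). Epyc, which encodes epiphycan of growth plate cartilage, had 7, 20, 160 and 16 counts in doxorubicin bones, against 8, 1, 19 and 1 counts in vehicle bones. Its log2 fold change of 2.87 ± 1.01 (SE; adjusted p = 0.856, edgeR) was 1.17 without doxorubicin 3. Beside it, 7 of 8 tested cartilage markers lay above 0, with a summed level of 83.6 to 207 CPM in doxorubicin and 49.4 to 185 CPM in vehicle bones, while Matn1 was at 0 in 1 library. In doxorubicin 1 and 2 most of that sum was Col2a1, with 169 and 180.1 CPM. Acan (15.7 CPM), Col9a1 (11.2), Col10a1 (29.5), Matn3 (4.41), Cnmd (10.2) and Hapln1 (45.5) were each highest in doxorubicin 3, the library highest in Epyc. Their part in the value of Epyc was not tested.

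The enzymes that build the sugar chains did not pass the test. Of 22 genes for the linker and for chondroitin and dermatan sulfate, 0 passed in either direction, and 15 had a positive log2 fold change, with a median of 0.12. Csgalnact1, which starts a chondroitin chain, had 7.79, 10.1, 9.25 and 10.0 CPM in doxorubicin bones, against 12.6, 15.7, 18.6 and 10.9 CPM in vehicle bones. Each doxorubicin library lay below each vehicle library, at a log2 fold change of -0.64 ± 0.18 (SE; unadjusted p = 0.00513, adjusted p = 0.817, edgeR; 0.205 in DESeq2). It was the 1 gene of the 22 with groups that did not overlap and the 1 with an unadjusted p under 0.05, near the shares of 3.59% and 5.36% over all tested genes. Xylt2, which adds the first xylose to the core protein, had a log2 fold change of 0.39 ± 0.21 (SE), and Fam20b, a kinase of that xylose, one of 0.19 ± 0.12 (SE). Of 7 genes for keratan sulfate 0 passed, with Chst5 at 0.60 ± 0.28, B3gnt7 at -0.52 ± 0.25 and Chst1 at 0.25 ± 0.22 (log2 ± SE). Counts per library were low for these, at 9 to 31 for Chst5, 34 to 93 for B3gnt7 and 23 to 62 for Chst1.

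Partners of these proteins did not pass either. Of 11 collagens 0 passed, and 9 had a positive log2 fold change, with a median of 0.13; Col1a1 was at 0.47 ± 0.54, Col5a1 at 0.31 ± 0.36 and Col5a2 at 0.33 ± 0.46 (log2 ± SE). Single libraries set these values: without doxorubicin 2, Col1a1 was at -0.11 and Col5a1 at -0.00057, and without doxorubicin 1, Col5a2 was at 0.016. Their summed level was 12164, 15890.3, 4132 and 4084 CPM in doxorubicin bones, against 10941, 3993, 5735 and 7654 CPM in vehicle bones, so doxorubicin 1 and 2 were high and doxorubicin 3 and 4 low, as for Bgn and Dcn. Of 16 receptors and bound growth factors 0 passed, with Tgfb2 at 0.30 ± 0.16, Tgfb3 at 0.42 ± 0.23 and Tlr2, a receptor for biglycan, at -0.26 ± 0.18 (log2 ± SE). Of 10 tested proteases and helpers 0 passed, with Mmp3 at 0.87 ± 0.29, Pcolce at 0.43 ± 0.23 and Mmp14 at 0.29 ± 0.20 (log2 ± SE). Mmp3 had only 10 to 36 counts per library, against 582 to 2123 for Pcolce.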

How the data were processed

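RNA-seq counts per gene of 8 mouse long-bone samples were analysed, 4 doxorubicin and 4 vehicle. The deposited values were treated as RSEM-type expected counts, that is, estimated counts; all were whole numbers. The submitters' processing notes name STAR 2.5.3a, RSEM 1.3.0 and the build GRCh38, which is human, although the table holds mouse identifiers; roles, annotation, strand setting and use of molecular identifiers: not given in the sources used here. Per the labels' protocols, libraries were stranded and poly-A selected. Of 55421 identifiers, 54587 matched GENCODE M21 (GRCm38) with their version, including all 10 members; it gave positions, lengths and GC content.

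Genes were kept by filterByExpr (minimum count 10, minimum total 15), scaled by TMM and tested with edgeR 4.0.16 in R 4.3.3 (robust quasi-likelihood, two-sided, Benjamini-Hochberg over 17035 genes, threshold 0.05, no covariate); DESeq2 1.42.0 and limma 3.58.1 (voom) were alternatives. The script was tested on simulated data. Log2 CPM used a prior count of 2. Intervals of fold changes are 95% and come from the edgeR fit. Member counts ran from 46 to 33905 per library, and with 4 mice in a group the number of animals limits precision. Over the 28 pairs of libraries the chi-square per degree of freedom was at least 29.0, so none was counted as a repeat of another.

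The members, the 6 pathway and 11 marker lists and the alternatives were chosen with earlier results of these data known. The rule for naming took all members, the 3 genes of each pathway list with the smallest p and the 2 genes most like each member. Alternatives were other scalings, filters and tools, haemoglobin genes left out, the replicate number as a block, marrow, muscle and tendon covariates, each library left out, the longest transcript as length and, added later, GC-adjusted offsets.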

Additional observations from a re-analysis of the deposited data

Results flagged for a closer look

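In 4 of 56 groups of 4 libraries checked, 1 library lay farther from the rest than Dixon's 95% limit for 4 samples, which chance does in about 1 in 20 groups. Aspn in doxorubicin 1, at 213 CPM, was far above the other doxorubicin libraries. Epyc in doxorubicin 3, at 5.27 CPM, was far above the other doxorubicin libraries. Mmp3, a protease that degrades matrix, was flagged in both groups: doxorubicin 2 was the low library at 0.691 CPM, and vehicle 1 the high one at 0.824 CPM.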

How the results depend on the processing

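Under 20 alternative settings 0 of 10 members passed the adjusted threshold, and the lowest adjusted p of a member was 0.397. Over the whole table DESeq2 called 29 genes, the fit with no filter on low counts called 1, and every other setting called 0. With 1 library left out, 0 to 1 members had an unadjusted p under 0.05 (Aspn without doxorubicin 1, Prelp without vehicle 4), and the median log2 fold change of the members ran from -0.17 to 0.20. It was -0.12 with the marrow covariate and -0.17 with the tendon covariate.

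Of 200 member estimates 25 changed sign, 16 of them with a library left out; Bgn and Prelp never did. Leaving out 1 library gave ranges of 0.10 to 0.45 for Bgn, 0.04 to 0.37 for Fmod, 0.18 to 0.46 for Prelp, -0.21 to 0.27 for Dcn, -0.24 to 0.18 for Lum, -0.27 to 0.11 for Omd, -0.28 to 0.032 for Ogn, -0.71 to 0.10 for Aspn, -0.089 to 0.53 for Kera and -0.33 to 0.20 for Podn. Library size as the only scaling gave -0.023 for Lum. The marrow covariate gave -0.16 for Dcn and -0.10 for Lum, the tendon covariate -0.27 for Dcn, -0.25 for Lum and -0.040 for Fmod, with Aspn at -0.80 and Bgn at 0.13, and the muscle covariate 0.045 for Omd. GC-adjusted offsets, chosen after seeing the data, gave 0.11 for Omd and 0.030 for Ogn. The cause of these changes was not tested. With the longest transcript as length, Bgn was at 292 TPM.

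The replicate number as a block gave 0 called genes, 1466 genes with an unadjusted p under 0.05 against 913 without it, and a median of 0.02 for the members. Rank correlations of whole expression levels between libraries ran from 0.957 to 0.990. Correlations between same-numbered libraries were taken of departures from a common level, not of the levels themselves. They were 0.34, -0.27, 0.43 and 0.09, and only doxorubicin 1 and 3 correlated best with their own number. Correlations of so few pairs cannot decide if same-numbered samples share more than a number.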

Other observations

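The coefficient of variation was larger in doxorubicin than in vehicle bones for 7 of the 10 members (70%), against 43.5% of all tested genes; the difference was not tested, and with 4 mice in a group 1 library can set it.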
